A study of Rattus norvegicus with 2 samples.

Results

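Genes for chromatin remodelers and histone modifiers were examined in the rat line RBL-2H3, a basophilic leukaemia used as a mast cell model. The members were taken by symbol, with earlier results of these data known. They were the Kmt, Kdm, Setd, Smarc, Chd, Hdac, Arid and Brd families, with Ezh1 and Ezh2. The single symbols Whsc1, Whsc1l1, Ep300, Crebbp, Dot1l and Sbno2 were added. This gave 90 of 15409 gene symbols and 151 of 20367 listed transcripts. Treated cells received PM2.5, that is fine particulate matter, plus IgE and DNP-HSA, the antigen that crosslinks IgE on its receptor. Saline cells received normal saline. The labels leave unsaid if IgE and antigen were also given to saline cells, so PM2.5 and receptor crosslinking cannot be told apart, and no dose unit or time is given. There was 1 library in each group, hence no replicate spread and no test between the conditions. The cells are a tumour line, and total RNA was sequenced in strand-specific libraries.

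Histone-modifying enzymes write and erase small groups on histone tails. Methyltransferases of the KMT2 and SETD1 families methylate lysine 4 of histone H3 (H3K4), a mark of promoters and enhancers, EZH enzymes methylate H3K27, a mark of Polycomb repression, and CREBBP and EP300 acetylate histones. Demethylases (KDM) and deacetylases (HDAC) remove these groups, and bromodomain proteins bind acetylated lysines. ATP-dependent remodelers of the SWI/SNF, ISWI and CHD families slide or evict nucleosomes. In activated mast cells such enzymes act on the promoters and enhancers of cytokine and mediator genes.

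The treated library held 3964955 reads and the saline library 7279671, so the treated values are the less precise. Members took 28870 of the treated reads, or 0.728% (exact Clopper-Pearson 95% interval 0.720 to 0.737), against 67827 of the saline reads, or 0.932% (interval 0.925 to 0.939). Per member there were 0 to 2342 reads with a median of 238.5 in the treated library, against 5 to 5148 with a median of 488 in the saline library. Intervals here and below cover counting error only, since each group has 1 library. PCR copies are not independent molecules, so the intervals can be too narrow even for counting error. In bulk RNA, fewer cells expressing a gene and less of its RNA per cell cannot be told apart. Of 12 markers of the line, 10 were listed, summing to 28881 normalised counts in treated cells and 29950 in saline cells. Single markers went both ways within this sum: Cpa3, a mast cell protease, was at a log2 fold (treated over saline) of 1.74, and Hdc, which makes histamine, was at -1.07. Of 15 markers of other cell types 5 were listed, and these summed to 535 in treated and 1290 in saline cells, mostly Csf1r (472 in treated and 1215 in saline cells); the T and B cell markers and Epcam were not listed. The part of these differences in the results was not tested.

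Differences are given as log2 folds, treated over saline, of the authors' normalised count plus 1, with an exact 95% interval of the ratio without the added 1. A fold of at least 1 either way was counted where 1 library had a normalised count of at least 1. By this rule 7 of 90 members were higher in treated cells, against 12.1% of all symbols, and 9 were lower, against 19.1%. Neither share was above the background, which includes many genes of few reads. Among symbols with a normalised count of at least 50, 6 of 85 members were higher (background 7.47%) and 6 were lower (background 8.59%). Small differences leaned one way: 61 of 90 members had a fold below 0, against 54.3% of all symbols. The median was -0.25 over members and -0.07 over all symbols. Counting intervals lay wholly below 0 for 45 members (26.8% of all symbols) and wholly above 0 for 19 (22.8%). With a normalised count of at least 50, they lay below 0 for 43 of 85 members and 3357 of 9469 symbols. At that count they lay above 0 for 19 of 85 members and 2990 of 9469 symbols.

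**Figure D1:**
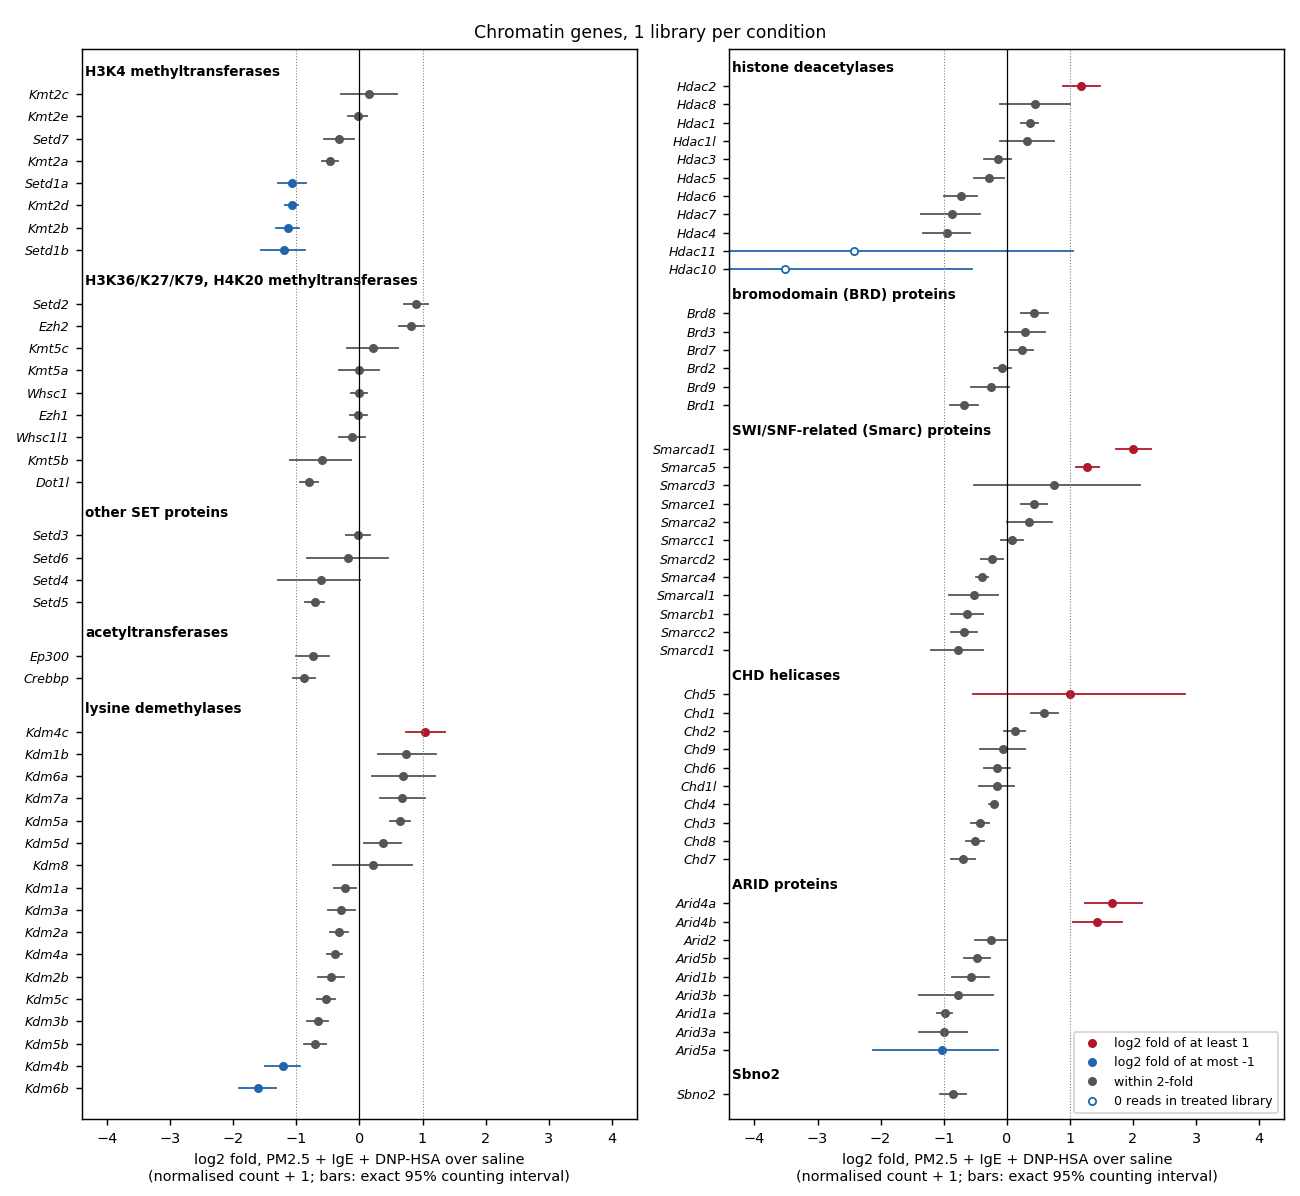
Log2 fold of treated (PM2.5 plus IgE and DNP-HSA) over saline for 89 members (x axis), by role group (y axis); points are the folds, bars exact 95% counting intervals, and dotted lines a fold of 1 either way. The 4 lower H3K4 methyltransferases sit close together just past -1, and Smarcad1 stands highest at 2.001.

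The enzymes that methylate H3K4 held the largest number of lower members of any role group. Of 8 measured, 4 were at least 2-fold lower in treated cells (background 19.1%, or 8.59% with a normalised count of at least 50) and 0 higher, with a group median of -0.77. Kmt2d, the main enhancer H3K4 monomethyltransferase, had a normalised count of 1614 in the treated library, against 3397 in the saline library (977 against 3917 reads), a fold of -1.07 (interval -1.18 to -0.97). Its highest transcript alone was at -0.96, short of 2-fold. Kmt2b, which acts at promoters, had 487 in treated and 1070.3 in saline cells, a fold of -1.13 (interval -1.32 to -0.95). The catalytic subunits of the SET1 complexes, which lay down most H3K4 trimethylation, were both lower. Setd1a had 330.3 in treated and 692 in saline cells, a fold of -1.06 (interval -1.30 to -0.84), and Setd1b had 139 and 319, a fold of -1.20 (interval -1.56 to -0.86). All 4 folds are near the threshold, and each interval reaches above -1. Kmt2a, the mixed-lineage leukaemia gene, was at -0.47 (interval -0.59 to -0.35) with 1287 in treated and 1779 in saline cells. The others were within 2-fold at -0.32 (Setd7, which also methylates non-histone proteins), -0.03 (Kmt2e, a SET protein without clear methyltransferase activity) and 0.15 (Kmt2c, interval -0.29 to 0.59).

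Methyltransferases of other histone lysines went both ways, and 0 of 9 passed 2-fold. The background was 12.1% higher and 19.1% lower, or 7.47% and 8.59% with a normalised count of at least 50. Setd2, which trimethylates H3K36 in transcribed gene bodies, was the highest at 0.89 (interval 0.70 to 1.08), with 747 normalised counts in treated and 402 in saline cells. Ezh2, the Polycomb H3K27 methyltransferase of dividing cells, had 661 in treated and 373 in saline cells, a fold of 0.82 (interval 0.62 to 1.02). Its relative Ezh1 was at -0.02, with 1119.8 in treated and 1136 in saline cells. Dot1l, the only known H3K79 methyltransferase, was the lowest at -0.80 (interval -0.95 to -0.66), with 890.2 in treated and 1554 in saline cells. The H3K36 dimethyltransferase genes Whsc1 (Nsd2 in RefSeq) and Whsc1l1 (Nsd3) were at -0.01 and -0.12 as sums of their transcripts. The H4K20 enzymes Kmt5a, Kmt5b and Kmt5c were at -0.0046, -0.60 and 0.21. The other SET proteins lay below 0, from Setd5 at -0.71 (interval -0.86 to -0.56) to Setd3, an actin histidine methyltransferase, at -0.02, but the intervals of Setd3, Setd4 and Setd6 held 0. Both acetyltransferases were lower by less than 2-fold. Crebbp had 613 normalised counts in treated and 1127 in saline cells, a fold of -0.88 (interval -1.05 to -0.71), and Ep300 had 271 and 453, a fold of -0.74 (interval -1.003 to -0.485).

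Lysine demethylases held members past 2-fold both ways. Of 17 measured, 1 was at least 2-fold higher in treated cells (5.88%, background 12.1%) and 2 at least 2-fold lower (11.8%, background 19.1%). With a normalised count of at least 50, the counts were again 1 and 2, and the backgrounds 7.47% and 8.59%. The lower share was thus below the first background and above the second. The group median was -0.29. Kdm6b (JMJD3), an H3K27 demethylase known to be induced by inflammatory stimuli in mouse macrophages, had 193 normalised counts in the treated library, against 591 in the saline library (117 against 681 reads). Its fold of -1.61 (interval -1.91 to -1.33) was the lowest among members with reads in both libraries. Kdm4b, an H3K9 and H3K36 demethylase, had 231 in treated and 537 in saline cells, a fold of -1.21 (interval -1.49 to -0.95). Kdm4c, an enzyme of the same family, went the other way at 1.04 (interval 0.74 to 1.35), with 314 in treated and 152 in saline cells. The members above 0 and within 2-fold were Kdm1b, Kdm6a, Kdm7a, Kdm5a, Kdm5d and Kdm8, from 0.75 to 0.21, and the interval of Kdm8 held 0. Below 0 lay Kdm1a (LSD1), Kdm2a, Kdm2b, Kdm3a, Kdm3b, Kdm4a, Kdm5b and Kdm5c, from -0.23 to -0.70. Kdm5c, an H3K4 demethylase, had 890.2 in treated and 1289 in saline cells, and Kdm4a 1292 and 1693. Kdm5c and Kdm5d are close copies on the X and Y chromosomes, so reads could have been split between them.

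Deacetylases lay on both sides of 0, with a median of -0.28. Of 11 measured, 1 was counted as higher (background 12.1%) and 2 as lower (background 19.1%). Hdac2, a class I enzyme, was the only one at least 2-fold higher among them, with 340.2 normalised counts in treated and 150.0 in saline cells, a fold of 1.18 (interval 0.88 to 1.48). Its partner Hdac1 was at 0.36 (interval 0.23 to 0.49) with 1346 in treated and 1049 in saline cells. Hdac8 and Hdac3, the other class I enzymes, were at 0.45 and -0.15, and both intervals held 0. The class IIa enzymes Hdac4, Hdac5 and Hdac7, which shuttle between cytoplasm and nucleus, were at -0.94 (interval -1.32 to -0.59), -0.28 (interval -0.52 to -0.04) and -0.87 (interval -1.36 to -0.43). Hdac6, a mainly cytoplasmic tubulin deacetylase, was at -0.73 (interval -0.999 to -0.472). Counted among the lower members were 2 with 0 reads in the treated library. Hdac10, a polyamine deacetylase, had 0 treated and 12 saline reads. Setting the treated value at its floor of 3 reads, it was at least 2.1-fold lower. Its counting interval reached up to a log2 fold of -0.55, short of 2-fold. Hdac11 had 0 treated and 5 saline reads, with both values at or under the floor of 3 treated reads, and no fold is given. Hdac1l was at 0.32 (interval -0.10 to 0.75), and its reads could have been shared with Hdac1.

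Bromodomain proteins stayed within 2-fold, with 0 of 7 past the rule. The background was 12.1% higher and 19.1% lower, or 7.47% and 8.59% with a normalised count of at least 50. A count of 0 among 7 genes says little beside these shares. Brd2 (-0.07) and Brd3 (0.29), which bind acetylated histones through paired bromodomains, had intervals that held 0. Brd2 had 1055 normalised counts in treated and 1109 in saline cells. Brd7 and Brd9, subunits of SWI/SNF complexes, were at 0.24 (interval 0.05 to 0.42) and -0.26 (interval -0.56 to 0.04). Brd8, a subunit of the TIP60 acetyltransferase complex, was at 0.44, and Brd1, a scaffold of other acetyltransferase complexes, was at -0.67 (interval -0.90 to -0.46).

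Among the Smarc genes the higher members were remodelers outside the SWI/SNF complexes. Smarcad1, a remodeler that helps to keep heterochromatin through replication, had 555 normalised counts in the treated library, against 138 in the saline library (336 against 159 reads). Its fold of 2.001 (interval 1.73 to 2.29) was the highest of all members. Smarca5, the ATPase of ISWI complexes (SNF2H), had 912 in treated and 376 in saline cells, a fold of 1.27 (interval 1.09 to 1.46). These were the 2 of 12 Smarc members at least 2-fold higher (background 12.1%), and none was at least 2-fold lower (background 19.1%). The SWI/SNF ATPases were within 2-fold: Smarca4 (BRG1) was at -0.40 (interval -0.50 to -0.30), with 1896 in treated and 2495 in saline cells, and Smarca2 (BRM) was at 0.36 (interval 0.01 to 0.71). Core and accessory SWI/SNF subunits lay on both sides, from Smarcd1 (-0.77), Smarcc2 (-0.67), Smarcb1 (-0.63) and Smarcd2 (-0.24) to Smarcc1 (0.08), Smarce1 (0.44) and Smarcd3 (0.75). Smarcd3 had 11 against 12 reads, and its interval held 0. Smarcal1, a fork-remodeling annealing helicase, was at -0.52.

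CHD helicases showed small differences. Chd4, the ATPase of the NuRD complex, had 3868 normalised counts in treated and 4465 in saline cells, a fold of -0.21 (interval -0.28 to -0.14). Its NuRD relative Chd3 was at -0.42 (interval -0.57 to -0.28), with 875 in treated and 1173 in saline cells. Chd1, which binds H3K4 trimethylation, was at 0.59 (interval 0.38 to 0.81), whereas Chd7 and Chd8 were at -0.70 and -0.51. The only one of 10 past 2-fold (background 12.1% higher and 19.1% lower) was Chd5 at 1.01. It had 8 against 7 reads, and its interval held 0 (-0.54 to 2.82). Chd2, Chd6, Chd9 and Chd1l lay between 0.13 and -0.16, and their intervals held 0.

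Of 9 ARID proteins 2 were at least 2-fold higher (background 12.1%) and 1 at least 2-fold lower (background 19.1%). Arid4a and Arid4b are DNA-binding subunits of the SIN3 deacetylase complex. Arid4a had 190 normalised counts in treated and 59.0 in saline cells (115 against 68 reads), a fold of 1.67 (interval 1.24 to 2.14). Arid4b had 223 in treated and 82.4 in saline cells (135 against 95 reads), a fold of 1.43 (interval 1.05 to 1.83); its symbol joins 2 gene identifiers. The SWI/SNF subunits of this family were not higher. Arid1a had 1189 in treated and 2350.4 in saline cells, a fold of -0.98 (interval -1.10 to -0.86), while Arid1b was at -0.57 and Arid2 at -0.25. Arid3a (-0.99) and Arid5a (-1.03, interval -2.12 to -0.14, 12 against 48 reads) straddled the threshold, and Arid3b and Arid5b were at -0.78 and -0.47. Arid5a encodes an RNA-binding protein that stabilises Il6 mRNA in mouse macrophages. Sbno2, a helicase-family corepressor of the IL-10 and STAT3 response in macrophages, had 416 in treated and 749 in saline cells, a fold of -0.85 (interval -1.06 to -0.64).

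The promoters of the 3 lowest and the 3 highest members with at least 50 reads are shown, since they mark both ends of the range and let their base composition be compared. Each runs from 250 bases before to 50 bases after the gene start in RefSeq (build GRCr8), 5′ to 3′ on the gene's strand. Capitals mark the GC box GGGCGG read on either strand, the core of the site bound by SP1-type factors.
Kdm6b (chr10:54640965-54641264, minus strand): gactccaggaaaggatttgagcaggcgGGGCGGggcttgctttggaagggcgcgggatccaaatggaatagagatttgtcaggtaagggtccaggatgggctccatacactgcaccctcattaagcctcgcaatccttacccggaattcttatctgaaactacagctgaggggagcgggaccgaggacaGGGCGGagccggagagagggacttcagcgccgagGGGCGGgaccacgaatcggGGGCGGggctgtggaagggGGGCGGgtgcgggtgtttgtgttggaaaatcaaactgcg
Kdm4b (chr9:1245653-1245952, plus strand): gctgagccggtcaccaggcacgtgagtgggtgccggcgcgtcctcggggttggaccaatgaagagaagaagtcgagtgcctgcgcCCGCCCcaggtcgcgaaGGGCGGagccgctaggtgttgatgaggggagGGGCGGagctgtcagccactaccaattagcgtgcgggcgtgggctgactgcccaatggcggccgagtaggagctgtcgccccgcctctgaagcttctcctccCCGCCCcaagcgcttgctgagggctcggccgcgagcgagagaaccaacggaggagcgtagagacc
Setd1b (chr12:39081822-39082121, minus strand): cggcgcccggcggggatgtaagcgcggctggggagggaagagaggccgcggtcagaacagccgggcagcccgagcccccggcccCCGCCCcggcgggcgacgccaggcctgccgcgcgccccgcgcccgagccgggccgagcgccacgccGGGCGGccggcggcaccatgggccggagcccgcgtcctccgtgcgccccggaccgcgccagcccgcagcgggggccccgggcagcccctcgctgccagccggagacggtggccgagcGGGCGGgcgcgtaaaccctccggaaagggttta
Smarcad1 (chr4:95641650-95641949, plus strand): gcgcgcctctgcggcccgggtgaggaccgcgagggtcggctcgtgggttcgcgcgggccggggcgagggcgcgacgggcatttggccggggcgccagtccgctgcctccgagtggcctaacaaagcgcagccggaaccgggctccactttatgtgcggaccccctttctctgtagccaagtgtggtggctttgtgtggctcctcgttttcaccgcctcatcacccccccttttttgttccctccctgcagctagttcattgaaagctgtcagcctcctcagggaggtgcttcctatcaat
Arid4a (chr6:95258179-95258478, plus strand): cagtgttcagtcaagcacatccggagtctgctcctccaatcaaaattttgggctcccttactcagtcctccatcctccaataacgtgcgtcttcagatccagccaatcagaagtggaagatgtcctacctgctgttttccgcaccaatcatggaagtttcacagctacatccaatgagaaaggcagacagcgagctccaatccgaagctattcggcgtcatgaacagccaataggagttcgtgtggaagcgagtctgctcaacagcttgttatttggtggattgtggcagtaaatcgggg
Arid4b (chr17:55958333-55958632, minus strand): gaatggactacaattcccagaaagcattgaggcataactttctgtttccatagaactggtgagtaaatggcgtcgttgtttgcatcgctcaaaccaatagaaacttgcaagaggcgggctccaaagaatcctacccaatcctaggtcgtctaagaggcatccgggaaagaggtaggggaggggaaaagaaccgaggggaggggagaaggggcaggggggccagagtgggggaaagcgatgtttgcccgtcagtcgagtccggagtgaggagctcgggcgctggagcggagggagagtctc
The 3 promoters of lower genes (Kdm6b, Kdm4b and Setd1b) held GC boxes, and those of Smarcad1, Arid4a and Arid4b held none in this window. Over the 75 members found in the RefSeq promoter table, a GC box stood in 7 of 7 promoters of lower members and in 4 of 7 of higher members. It stood in 56 of 75 member promoters (74.7%), against 34.9% of all 27457 promoters of the table. That table also holds genes without a value in these libraries, and the share among measured genes alone was not computed. Other motifs were searched on both strands, with overlaps allowed. The cAMP response element TGACGTCA was in 1.33% of member promoters and 1.91% of all, and the AP-1 site TGANTCA in 2.67% and 7.33%. CCAAT was in 36% of member promoters and 37.7% of all, and the E-box CACGTG in 4% and 6.65%. These matches are letters in a window and no record of binding. The GC content of the promoter ran weakly with the fold, with a Spearman rho of -0.19 across 71 members and -0.08 across 6874 symbols with a normalised count of at least 50. The points share both libraries. At that count the median GC content was 67.7% for 5 lower members, 64.2% for 6 higher members and 63.8% for 60 members within 2-fold. Of the promoters shown, GC content was 60% in Kdm6b, 67.7% in Kdm4b and 82% in Setd1b. It was 64.7% in Smarcad1, 49.3% in Arid4a and 55% in Arid4b. The GC content of the transcripts themselves was not analysed here.

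Closely related genes were set side by side, in 18 pairs chosen by family. The ratio of their treated-over-saline ratios does not depend on how the libraries were scaled, but the side of 0 of each fold does. In 7 pairs the members lay on opposite sides of 0. In 14 pairs the counting interval of the ratio of ratios held no 0. The same counts over other gene pairs were not computed, so neither count has a background. Over all 90 members, 61 folds lay below 0 and 29 above. Within the 7 pairs, the single-gene intervals of Ezh1, Smarcc1 and Kmt2c held 0. Centred on the median, Ezh1 moved from -0.02 to 0.02. The widest gap was between the H3K27 demethylases, Kdm6a at 0.69 and Kdm6b at -1.61, a log2 ratio of 2.31 (interval 1.72 to 2.89). Both listed Kdm6a transcripts are annotated as RNA other than protein coding, on 64 treated and 75 saline reads, so this pair has no value from protein-coding transcripts alone. The next were Kdm4a (-0.39) and Kdm4c (1.04), with a log2 ratio of -1.44 (interval -1.77 to -1.11), and the enhancer methyltransferases Kmt2d (-1.07) and Kmt2c (0.15), with one of -1.23 (interval -1.68 to -0.77). The H3K4 demethylases Kdm5a and Kdm5c were at 0.64 and -0.53, a log2 ratio of 1.17 (interval 0.96 to 1.39). The log2 ratio of Ezh2 over Ezh1 was 0.85 (interval 0.60 to 1.09), and that of Smarca4 over Smarca2 was -0.76 (interval -1.12 to -0.39). For Hdac1 over Hdac2 it was -0.82 (interval -1.15 to -0.49), though both were above 0. Intervals held 0 for Crebbp and Ep300 (-0.45 to 0.18), Setd1a and Setd1b (-0.28 to 0.56), Kdm2a and Kdm2b (-0.13 to 0.37), and Whsc1 and Whsc1l1 (-0.13 to 0.35). This does not show that these pairs acted alike.

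**Figure D2:**
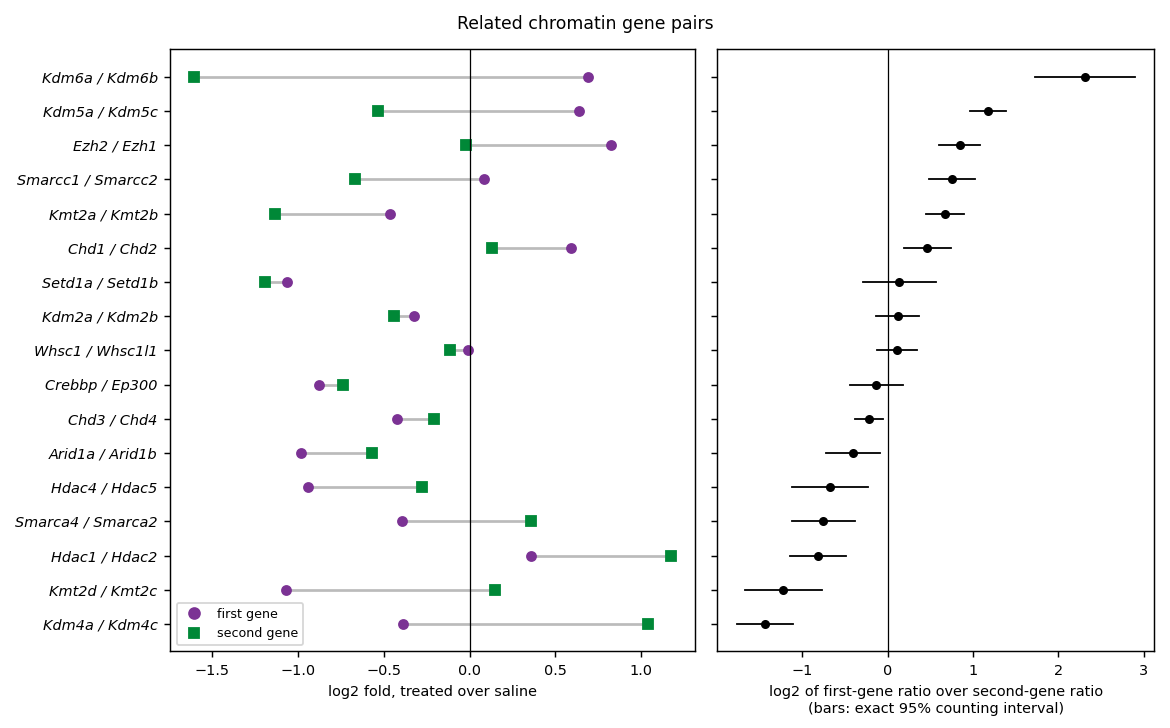
Left, log2 folds, treated over saline (x axis) for both genes of 17 related pairs (y axis); right, the log2 ratio of the first gene's ratio over the second's, with exact 95% counting intervals. Kdm6a and Kdm6b stand farthest apart at 2.31, and the intervals of 4 pairs cross 0.

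Single transcripts differed far more than the gene sums. Of 150 member transcripts that passed the filter, 31 were at least 2-fold higher in treated cells, against 15.8% of all transcripts, and 37 were at least 2-fold lower, against 23.7%. With a normalised count of at least 50, the counts were 22 higher (background 11.5%) and 21 lower (background 12.6%) of 116. Within 12 of 27 symbols with several transcripts of at least 10 reads, some transcripts were past 2-fold up and others past 2-fold down, against 19.3% of such symbols in the whole table. Among these were Arid5b, Brd3, Chd2, Kdm5a, Kdm5b, Kdm5c, Kmt2e, Sbno2, Smarcc1, Smarce1 and Whsc1l1.

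The exchange between transcripts was measured as the summed gain in share, in percentage points, over the transcripts whose share was higher in treated cells. It could be computed for 32 members with 2 or more listed transcripts and at least 50 reads in each library. In 8 of 32 the shift was at least 50 percentage points, against 11.0% of 2065 symbols measured the same way. The leading transcript differed between the libraries in 10 of 32 members, against 18.0%. In all 8 shifted members the gene sum stayed within 2-fold, as in 190 of 227 shifted symbols of the whole table. The largest among the 8 was Sbno2 at -0.85. At the other end, 16 of 32 members shifted by under 10 points, against 1266 of 2065 symbols. Chd8, Brd8 and Brd7 shifted by under 1 point. The labels do not say how reads shared by several transcripts were assigned, and its part in the shifts was not tested.

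Brd3 and Smarcc1 showed a complete or nearly complete exchange. For Brd3, ENSRNOT00000065867 took 139 of 139 treated reads and 0 of 217 saline reads (upper limit of the exact interval 1.69%), while ENSRNOT00000084491 took 0 treated and 217 saline reads. For Smarcc1, a core SWI/SNF scaffold, ENSRNOT00000064140 took 436 of 436 treated reads and 4 of 784 saline reads, and ENSRNOT00000082607 took 0 treated and 780 saline reads. The sums over transcripts were close, at 0.29 for Brd3 and 0.08 for Smarcc1. Against the floor of 3 reads, ENSRNOT00000065867 of Brd3 was at least 88.2-fold higher, ENSRNOT00000084491 of Brd3 at least 38.0-fold lower and ENSRNOT00000082607 of Smarcc1 at least 137-fold lower. Their counting intervals reached smaller folds, to log2 folds of 6.15, -4.94 and -6.79 in that order.

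Of the H3K4 demethylases of the Kdm5 family, Kdm5a and Kdm5b shifted by at least 50 points, as did Kmt2e. Kdm5d shifted by 7.25 points and kept its leading transcript. In Kdm5a, ENSRNOT00000079090 took 0 of 621 treated reads and 608 of 759 saline reads (80.1%, interval 77.1 to 82.9), and ENSRNOT00000075895 led in the treated library with 53.3% (interval 49.3 to 57.3). In Kdm5b, ENSRNOT00000087025 took 240 of 352 treated reads (68.2%, interval 63.0 to 73.0) and 0 of 1088 saline reads, where ENSRNOT00000077928 took all. Kmt2e, with 7 transcripts, was led by ENSRNOT00000084050 in the treated library with 317 of 521 reads, a transcript with 0 of 1012 saline reads. In the saline library ENSRNOT00000076000 led with 650 reads, and it had 0 treated reads. Kdm5c was just short of the 50 points at 49.0; its transcript ENSRNOT00000078617 took 4 of 539 treated reads and 626 of 1486 saline reads.

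Whsc1l1 and Sbno2 each have 2 listed transcripts, both with reads in both libraries. Human NSD3 is known to be made as long and short proteins; which protein each listed rat transcript encodes was not analysed here. In Whsc1l1, ENSRNOT00000066974 took 253 of 309 treated reads (81.9%, interval 77.1 to 86.0), against 43 of 638 saline reads (6.74%, interval 4.92 to 8.97). In Sbno2, ENSRNOT00000068197 took 169 of 252 treated reads (67.1%, interval 60.9 to 72.8), against 23 of 864 saline reads (2.66%, interval 1.69 to 3.97). For both genes the minor transcript of the saline library was the major one of the treated library, and the intervals of the shares lay far apart. Smaller shifts were found in Chd2 (37.6 points), Arid5b (33.0 points) and Smarce1 (26.7 points), with the leading transcript the same in both libraries.

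**Figure D3:**
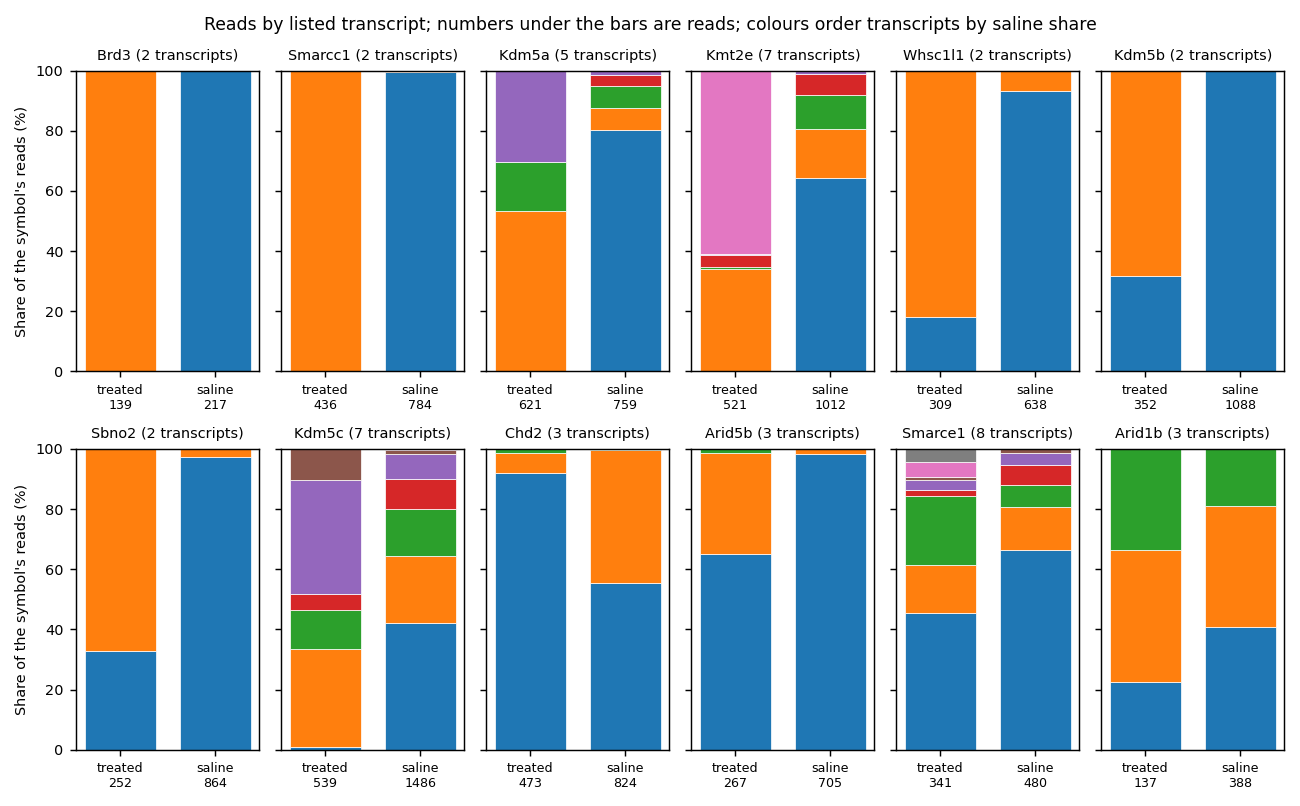
Share of each symbol's reads by listed transcript (y axis, percent) in the treated and the saline library (x axis, with reads) for 12 of the members of largest shift; colours order transcripts by their saline share. In Brd3 and Smarcc1 the treated and saline bars have almost no colour in common, whereas Chd2, Arid5b and Smarce1 keep their leading transcript.

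Among 57 mRNA transcripts in the authors' deposited table of selected mRNAs, 5 belonged to 3 members, Kdm5b, Sbno2 and Whsc1l1. In the authors' deposited table ENSRNOT00000066974 of Whsc1l1 had p = 0.0372 and ENSRNOT00000088458 of the same gene p = 0.0467. For Sbno2 the authors' deposited table listed p = 0.0454 for ENSRNOT00000068197 and p = 0.0422 for ENSRNOT00000077146. For ENSRNOT00000077928 of Kdm5b the authors' deposited table listed p = 0.0402. Every one of these 5 had an adjusted p of 0.920 in the authors' deposited table. The transcripts of Whsc1l1 and of Sbno2 differed in opposite directions: log2 folds of 3.45 and -2.47 for Whsc1l1, and 3.74 and -2.40 for Sbno2. The sums over both transcripts were at -0.12 for Whsc1l1 and -0.85 for Sbno2.

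Other chromatin genes, 171 in 9 lists by complex, had more folds below 0 than above, as did all symbols. Of 165 measured, 11 were at least 2-fold higher (background 12.1%) and 15 at least 2-fold lower (background 19.1%). Below 0 lay 101 (61.2%, against 54.3% of all symbols), and the median was -0.18, against -0.07 over all symbols. Partners of the H3K4 enzymes (COMPASS core) had 10 of 12 below 0, 0 lower and 1 higher by the rule, and a median of -0.43. Psip1, which links KMT2A to chromatin, was the higher one at 1.26 (interval 0.94 to 1.60). The histone chaperones were the only one of the 9 lists with a median above 0, at 0.56, with 11 of 19 above 0 and 2 past 2-fold. Npm1, nucleophosmin, had 3247 normalised counts in treated and 1179 in saline cells, a fold of 1.46 (interval 1.36 to 1.56), and Anp32a was at 1.01. Polycomb subunits went both ways, with 3 of 27 higher and 3 lower. Among them were Rnf2, the H2A ubiquitin ligase (1.27, interval 0.97 to 1.60), and Pcgf1. Pcgf1 had 0 treated and 37 saline reads, at least 6.48-fold lower against the floor of 3 reads. Its counting interval reached up to a log2 fold of -2.32, a smaller fold.

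In the INO80, SRCAP and ISWI list 3 of 22 were higher and 3 lower, against a background of 12.1% higher and 19.1% lower that also applies to the other lists. Hells, a remodeler needed for DNA methylation, had 47 treated and 0 saline reads, at least 29.8-fold higher against the floor of 3 reads. Its counting interval reached down to a log2 fold of 4.54, a smaller fold. Ino80b, an INO80 subunit, had 0 treated and 63 saline reads, at least 11.0-fold lower against that floor. Its interval reached up to a log2 fold of -3.12, also a smaller fold. Atrx, the ATPase that deposits histone H3.3 with DAXX, was at 1.31 (interval 0.96 to 1.67). Of deacetylase complexes and sirtuins, 2 of 22 were lower and 0 higher, among them the NuRD subunit Mbd3 at -1.21 (interval -1.61 to -0.85). Other acetyltransferase genes had 1 of 20 higher, Hat1 at 1.30 (interval 1.07 to 1.55), and 2 lower, Brpf1 and Brpf3. Other methyltransferases had 1 of 20 higher, Setmar on 9 against 3 reads, and 1 lower, Prdm4 at -1.36. Other SWI/SNF subunits had 2 of 13 lower, Dpf1 (-1.45) and Bcl7a on 0 treated and 5 saline reads. Genes of DNA methylation had 2 of 11 lower, Tet3 at -1.06 and Dnmt3b on 0 treated and 3 saline reads.

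**Figure D4:**
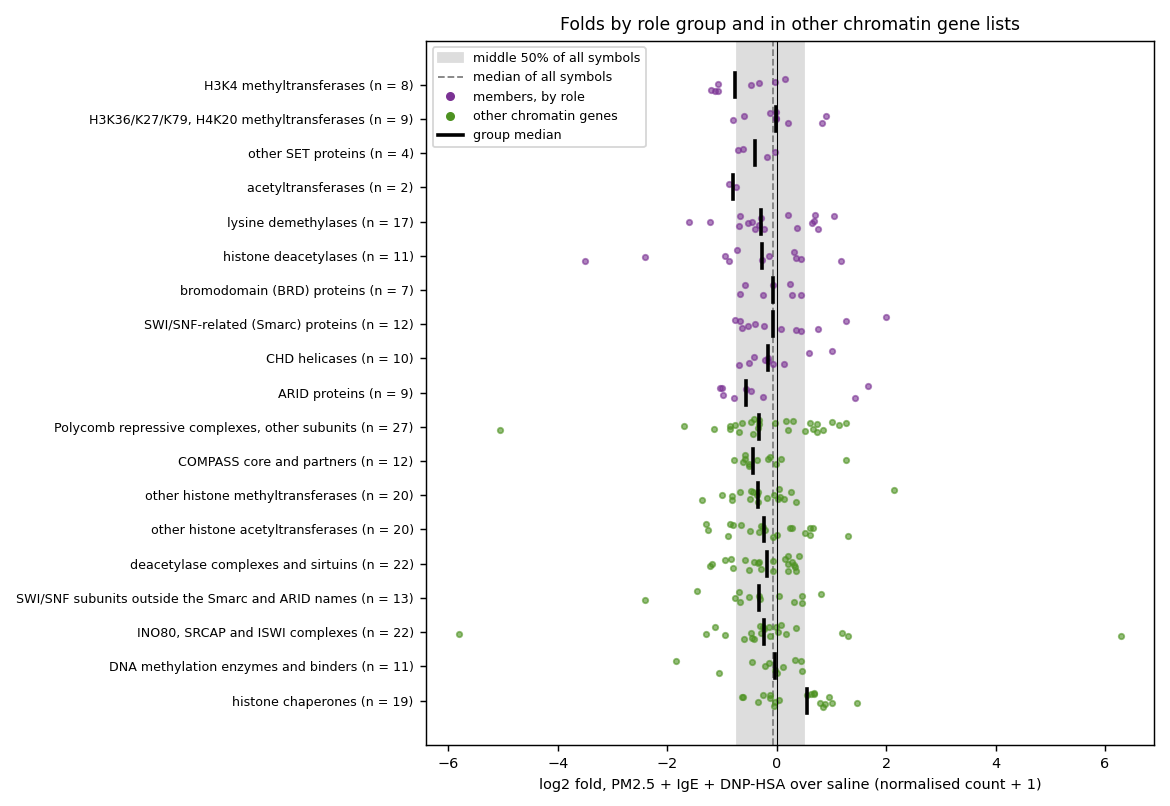
Log2 folds, treated over saline (x axis) for members by role group and for 9 lists of other chromatin genes (y axis, with the number measured); points are genes, black bars group medians, the grey band the middle 50% of all symbols. The H3K4 methyltransferase median lies at -0.77 and the histone chaperone median at 0.56.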

How the data were processed

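Per the labels' protocols, total RNA of RBL-2H3 cells went into TruSeq libraries that keep the strand, 1 for each treatment. FastQC, STAR 2.5, Cuffnorm and DESeq 1.22.1 are named in the submitters' processing notes without role or order; no genome build, annotation release or way of counting is named there. Each transcript has 1 log2 value per library in the authors' deposited tables, and per the file headers the p-values and adjusted p-values are the authors' own. Raising 2 to each value and subtracting 1 gave whole multiples of 1 step for 100% of values in each library (tolerance 1e-06 reads), so reads and size factors (0.605 treated, 1.15 saline) followed. The authors' fold column runs saline over treated and was not used; 4 further columns repeat the values under other names.

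Transcripts were summed by symbol. For each gene, the exact (Clopper-Pearson) 95% interval of the share of reads from treated cells was turned into one of the ratio; intervals between pairs are exact conditional odds-ratio intervals. A gene at 0 reads was set at 3 reads in that library to bound its fold (4.95 normalised counts treated, 2.60 saline). These bounds leave out the counting error of the other library, so the counting interval can reach a smaller fold. No count model or test was run, with 1 library per group. The log2 unit had not been foreseen, and folds use the values as deposited with 1 added. The members, role groups, pairs and lists were chosen with earlier results of these data known. All members may be named; members past 2-fold with at least 10 reads, the 2 of highest count in each role group, the pairs and Sbno2 were to be given in full, and several of these are given by fold or ratio alone. Of other lists, the largest differences each way with at least 10 reads are named, and further ones were chosen after their values were seen. A few genes are counted in totals but not reported here by name. A planned relation to protein length was not run. The calculation was tested on simulated data. Computation used SciPy 1.17.1, pandas 2.3.3 and NumPy 2.4.6 under Python 3.11.15, and figures Matplotlib 3.10.9.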

Additional observations from a re-analysis of the deposited data

How the results depend on the processing

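Settings were changed one at a time: a pseudocount of 5, filters of 5 and 50 or none, totals made equal, folds centred on the median, a TMM factor, the highest transcript alone and protein-coding transcripts alone; the minimum of 10 reads, the isoform settings and centred role counts were chosen after seeing the data. Making totals equal shifted the log2 ratio of the libraries by 0.05 and the TMM factor by -0.01, before the 1 was added, so folds of genes with few reads moved less; centring subtracted -0.04 from each fold. The member median stayed below 0 throughout, between -0.31 and -0.22. The count of higher members was 5 to 7 except for 11 with the highest transcript alone, that of lower members 6 to 12, and the count of lower transcripts 21 at a filter of 50. With totals made equal, 0 demethylases and 0 CHD genes were higher and 3 ARID genes lower, against 1, 1 and 1. With a filter of 50, 0 deacetylases and 0 ARID genes were lower and 0 CHD genes higher; centred, 0 ARID genes were lower. With its highest transcript alone Arid5a, of 48 members so examined, turned to 0.0521. That setting moved 11 other folds, among them Sbno2 to -2.40 and Kdm5b to -2.34. These single-transcript values follow from leaving out the other transcripts; the cause of the other changes was not tested. Protein-coding transcripts alone left Arid5b and Kdm6a without a value. The isoform count stayed at 8, of 32 members with a minimum of 20 reads (12.9% of all symbols) and of 28 with 100 reads (8.89%). At 30 points it was 11 of 32 (18.5%). No paired analysis was possible because each group has 1 library. Depth limits genes with few reads, such as Chd5, Smarcd3 and Hdac11.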

Other observations

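The member transcripts that differed most were not among those of lowest p in the authors' deposited table. Of member transcripts with 0 reads in 1 library and at least 100 in both together, there were 8, in Brd3, Kdm5a, Kdm5b, Kmt2d, Kmt2e and Smarcc1. ENSRNOT00000082607 of Smarcc1, with 0 against 780 reads, was at least 137-fold lower against the floor of 3 reads, and ENSRNOT00000084050 of Kmt2e, with 317 against 0 reads, at least 201-fold higher. Their counting intervals reached smaller folds, to log2 folds of -6.79 and 7.35. In the authors' deposited table all 8 had p between 0.6405 and 0.6409. Over the whole of the authors' deposited table, 4264 transcripts had reads in 1 library only, the smallest p among them was 0.26, and none of them was among the 57 selected mRNAs.

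Kmt2d was lower through both of its listed transcripts. The main one, ENSRNOT00000077502, had 977 treated and 3620 saline reads, a log2 fold of -0.96, and ENSRNOT00000083354 had 0 treated and 297 saline reads.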
